A study of Mus musculus with 12 samples.

Results

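The difference of differences described here sets the effect of radiation in tumours that also received a fusion protein against its effect in tumours that did not. For each gene it was taken as (combined minus fusion protein) minus (20 Gy minus untreated), on the log2(normalized count + 1) scale, and it equals the effect of the fusion protein with radiation minus its effect without. A value of 0 means that the separate effects multiply. A positive value means that the level after both treatments was higher than that product, and a negative value that it was lower. All genes were eligible, with no choice by measured value, and 18274 of the 55401 gene identifiers had enough reads to be tested, in 12 of the 12 libraries.

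The RNA came from living cells sorted for CD45, which leukocytes carry on their surface, and for CD11c, an integrin that dendritic cells share with many macrophages. Their source was B16-OVA tumours, a transplanted mouse melanoma that makes chicken ovalbumin. The mice are labelled WT, with no strain or age. The combined group received 20 Gy on day 10 of tumour growth with 20 mcg of the fusion protein, and 10 mcg more on day 14. The fusion protein group received those same protein doses without radiation, the 20 Gy group the radiation alone, and the untreated group neither. Every group was collected on day 17, with 3 libraries each. What the fusion protein is made of is not given in the sources used here. They also do not say whether libraries of a group came from separate or pooled mice, and p-values therefore cover only the spread between the libraries at hand, which may be technical.

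Radiation breaks DNA, and fragments that reach the cytosol of irradiated or engulfing cells can start production of type I interferons. These cytokines bind a receptor found on nearly all cells, and a complex that holds IRF9 then switches on antiviral genes through DNA elements with repeated GAAA steps. Dendritic cells that have taken up tumour material mature, turn on the homing receptor CCR7 and in one state also make CCL22, which draws regulatory T cells through CCR4. Plasmacytoid dendritic cells are a separate lineage specialised in sensing nucleic acids through TLR7 and TLR9. The title of the study ties such a CCL22 program to resistance to radiation.

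Promoter stretches of interferon-stimulated genes are shown because 42 of 48 such genes rose with the fusion protein in irradiated tumours and 40 of 48 in tumours without radiation, the arms that the contrast compares. The windows run from 250 bases before to 50 bases after the start in RefSeq (GRCm38.p6): Slfn4 at chr11:83174936-83175235 on the plus strand, Ifi44 at chr3:151749861-151750160 on the minus strand and Ifit3 at chr19:34583279-34583578 on the plus strand. Capitals mark matches, on either strand, to GAAA, 2 free bases and GAAA, a minimal form of the interferon element, with overlapping matches counted.
Slfn4: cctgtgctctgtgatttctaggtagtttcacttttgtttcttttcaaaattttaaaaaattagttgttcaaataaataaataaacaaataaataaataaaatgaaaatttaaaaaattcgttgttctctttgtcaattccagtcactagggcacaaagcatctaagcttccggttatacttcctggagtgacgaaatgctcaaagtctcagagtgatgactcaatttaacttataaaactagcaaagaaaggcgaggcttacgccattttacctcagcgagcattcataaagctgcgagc
Ifi44: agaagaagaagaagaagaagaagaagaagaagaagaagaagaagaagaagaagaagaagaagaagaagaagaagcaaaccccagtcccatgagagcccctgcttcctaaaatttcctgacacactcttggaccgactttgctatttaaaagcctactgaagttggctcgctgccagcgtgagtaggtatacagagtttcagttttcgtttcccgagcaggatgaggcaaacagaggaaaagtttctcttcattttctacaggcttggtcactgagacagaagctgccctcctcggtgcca
Ifit3: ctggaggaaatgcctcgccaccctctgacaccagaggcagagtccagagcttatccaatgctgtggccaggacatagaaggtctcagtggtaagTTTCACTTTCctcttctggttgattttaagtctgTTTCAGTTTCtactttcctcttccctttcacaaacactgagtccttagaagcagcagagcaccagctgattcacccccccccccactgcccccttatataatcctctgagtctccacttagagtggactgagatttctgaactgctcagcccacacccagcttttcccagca
The Ifit3 window held 2 matches, both read on the opposite strand, that begin 156 and 122 bases before the start, and the other 2 windows held 0. Of all 32851 promoter windows of this length 3.44% held a match, against 25 of 42 windows (59.5%) of the type I interferon response list, or 21 of its 34 genes with a window. A match is a description of the letters, and a window without one says nothing about binding.

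The libraries held 14462032 to 23985496 reads in genes. Ptprc, which encodes CD45, had 30925 to 53839 normalized counts and Itgax, which encodes CD11c, had 2226 to 9497, so both sort markers were present in every library. Of 1754 genes for receptors of smell and pheromones (olfactory, vomeronasal and trace amine), silent in immune cells, 57.7%, 13.63% and 39.68% had a read in combined libraries 1 to 3, and 25.48%, 4.79% and 19.73% in fusion protein libraries. The shares were 78.96%, 59.01% and 13.11% in 20 Gy libraries and 12.6%, 5.02% and 21.32% in untreated libraries. Tyrp1, a pigment enzyme of melanocytes, had 202.8 to 4718.1 normalized counts in the 4 libraries numbered 3 and at most 38.5 in the other 8. Both features fall unevenly over the 4 groups, so list medians are also given without the libraries concerned where these move them.

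No gene passed the test of the interaction. With limma, 0 of 18274 genes had an adjusted p under 0.05 (0%), and 188 (1.03%) had an unadjusted p under 0.05. Of these 44 (0.241%) were positive and 144 (0.788%) negative. The share of 1.03% is below the fraction of 0.05 that such p-values would give where no gene departs from 0. A replicate block gave 555 genes at that level with limma, and the reason for the low share was not tested. Positive and negative contrasts were nearly equal in number, 9130 and 9144, around a median of 0.00 (log2). The median SE of a contrast was 0.63, and in 4444 genes (24.3%) the 95% interval lay within a log2 of 1 on either side of 0, that is within a 2-fold departure from the product of the separate effects. In the remaining genes a departure of that size was not excluded by the interval, which comes from a fit with no term for library number. TMM scaling moved the median over all genes to 0.12, and 0 genes passed there too.

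The 144 negative genes at that unadjusted level differed in make-up from the genes tested. Their highest group mean was under 50 normalized counts in 103 (71.5%), against 31.4% of all tested genes, and the 20 Gy group had the highest mean in 102 (70.8%), against 30.4%. The untreated group had the lowest mean in 107 (74.3%), against 27.7%. Of the 3 libraries given 20 Gy alone, 2 also had the most receptor genes with a read, and the part of that in these contrasts was not tested. Among the 44 positive genes the pattern was turned round, with the lowest mean in the 20 Gy group in 26 (59.1%, against 24.7%) and the highest in the combined group in 27. These shares use the values that set the contrast and describe the genes only.

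Most genes that rose with the fusion protein in tumours without radiation also rose with it in irradiated tumours. With radiation, the protein's effect being combined against 20 Gy, 154 genes rose (0.843%) and 34 fell (0.186%). Without radiation, fusion protein against untreated, 107 rose (0.586%) and 29 fell (0.159%), all by limma at an adjusted p under 0.05. Together these were 188 genes with radiation (1.03%) and 136 without (0.744%), where 8.99% and 8.41% had an unadjusted p under 0.05. These comparisons share no library, but they use the same estimate of each gene's spread. Same-numbered libraries also correlated across groups (0.01 to 0.621), so the overlap is not one of independent comparisons. Of the genes that rose, 94 did so in both, 61% of those with radiation and 87.9% of those without, and 15 fell in both, 44.1% and 51.7%. All 167 genes that rose in either comparison had a positive log2 difference in the other, and all 48 that fell in either had a negative one. The share of all tested genes with equal signs is not given here, so this describes the called genes only. Over these 167 genes the median interaction was 0.30, with an unadjusted p under 0.05 in 6 and an interval within a log2 of 1 in 28. Over the 48 it was −0.20, with 2 and 7. Leaving out single libraries gave 76 to 201 calls with radiation, with 82 and 76 without combined 1 and 3 and 86 and 79 without 20 Gy 1 and 2, and 46 to 178 without radiation. The low counts without radiation were 46 and 72 without fusion protein 1 and 3, 61 and 77 without untreated 2 and 3, 88 and 90 without combined 1 and 3, and 90 without 20 Gy 2. For radiation with the fusion protein present, combined against fusion protein, 0 genes passed with limma (534 at an unadjusted p under 0.05, 2.92%), and 0 with edgeR and DESeq2. For radiation without it, 20 Gy against untreated, 0 passed with limma (1231 at an unadjusted p under 0.05, 6.74%) and 0 with edgeR, but 45 with DESeq2.

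**Figure D1:**
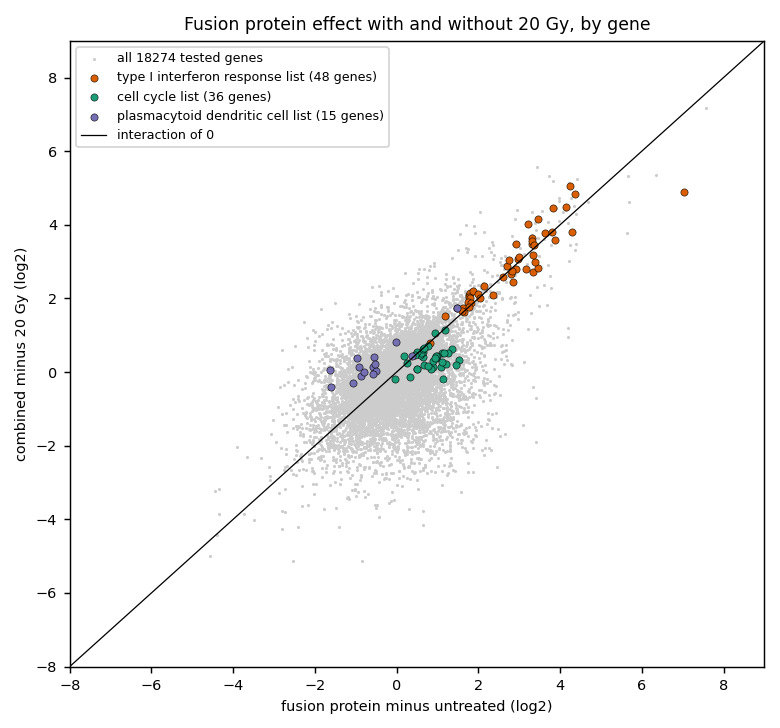
Effect of the fusion protein on each of 18274 tested genes with radiation (vertical axis, combined minus 20 Gy, log2) against its effect without radiation (horizontal axis, fusion protein minus untreated, log2), with 3 gene lists coloured and a line where the interaction is 0. Interferon response genes lie far along the line, most cell cycle genes below it and plasmacytoid dendritic cell genes above it.

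Type I interferon response genes rose with the fusion protein in both arms. The list holds 48 genes that interferons switch on. Like the other lists, it was chosen with earlier results of these data known, so its counts describe the list only. Of its 48 genes, 42 rose with radiation and 40 without, against the 0.843% and 0.586% of all genes given above. Their median effect was 2.81 (log2) with radiation and 2.89 without. The interaction had a median of 0.12, with 31 members above 0 and 17 below. There were 0 members at an unadjusted p under 0.05 and 7 intervals within a log2 of 1. For the other 41 members the interval of the limma fit, which has no term for library number, allows a 2-fold departure. The mean level of the list (log2) was 12.57, 11.89 and 12.65 in combined libraries 1 to 3 and 12.18, 11.21 and 11.79 in fusion protein libraries, against 9.14, 9.17 and 10.16 in 20 Gy libraries and 9.06, 8.69 and 8.97 in untreated libraries. Every library with the fusion protein stood above every library without it.

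Leaving out the 3 libraries with the highest shares of receptor genes read, combined 1, 20 Gy 1 and 20 Gy 2, turned the median interaction of this list to −0.61, with 7 of 48 members above 0, and 0 of 48 then rose with radiation and 24 without. That leaves 20 Gy with 1 library, number 3, which had the highest list mean of its group and is assumed to vary like the others. Leaving out any single library put the median between −0.14 and 0.36, lowest without fusion protein 2 and highest without 20 Gy 3, and 25 to 43 members rose with radiation and 22 to 42 without.

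Ifit3, an antiviral RNA-binding protein whose promoter holds both matches shown above, had 11990.5, 8293.4 and 13094.5 normalized counts in combined libraries and 8862.2, 5878.6 and 7253.6 in fusion protein libraries. In 20 Gy libraries it had 351.1, 350.4 and 978.9, and in untreated libraries 584.1, 555.4 and 400.4. The groups with and without the protein did not overlap. Its effect was 4.46 with radiation (limma, adjusted p = 0.000355) and 3.83 without (adjusted p = 0.000998), an interaction of 0.63 ± 0.52 (log2, SE) with an interval of −0.51 to 1.77. Its near-identical neighbour Ifit3b may share reads with it. Ifi44, an interferon-induced microtubule-associated protein, rose by 5.05 with radiation (limma, adjusted p = 0.00046) and 4.25 without (adjusted p = 0.0016), an interaction of 0.80 (−0.59 to 2.20).

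Slfn4, a myeloid Schlafen gene, was the list's largest departure on the log scale. It had 34270.5, 11146.8 and 37381.1 normalized counts in combined libraries and 22960.8, 1346.3 and 13883 in fusion protein libraries. In 20 Gy libraries it had 604.5, 564.7 and 1557.4, and in untreated libraries 107.8, 39.9 and 41.4. Its group mean was highest with both treatments and lowest with neither, and 20 Gy libraries lay above untreated ones without overlap. The rise with the protein was 4.90 with radiation (limma, adjusted p = 0.0291) and 7.04 without (adjusted p = 0.00501), which gives an interaction of −2.14 with an interval of −4.98 to 0.71. The combined group's geometric mean was 24261 normalized counts, where the product of the separate effects is 106684. On an additive scale the direction turns: the combined mean exceeded the sum of the separate gains by 14024 normalized counts. Ifi27l2a, an interferon-induced mitochondrial protein, turned in the same way, from a contrast of −0.60 (−1.39 to 0.18) on the log scale to one of 355.58 normalized counts on the additive scale.

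Genes of the interferon gamma response leaned positive. Of 32 members 26 lay above 0, where 50% of all tested genes did, and the median was 0.38. With radiation 7 rose (0.843% of all genes did) and without it 3 (0.586% of all). Gbp4, a guanylate-binding protein that attacks vacuoles of intracellular microbes, had 5639.2, 4402.7 and 6337.9 normalized counts in combined libraries and 6376.7, 4360 and 4542 in fusion protein libraries, against 1196.8, 1345.8 and 1680.4 in 20 Gy libraries and 1849.7, 1927.1 and 2042.1 in untreated libraries. All 3 values after 20 Gy alone lay below all 3 of the untreated group, while the groups with the protein overlapped. Its contrast was 0.58 (−0.05 to 1.21). Tgtp2, a GTPase of the same defence system, had a contrast of 0.93 (−0.37 to 2.22). Ido1, which breaks down tryptophan, was the list's only member with an unadjusted p under 0.05, with a contrast of −3.47 (−6.87 to −0.07), but it had 26.8 normalized counts or fewer in every library. Without the 3 libraries rich in receptor genes the list's median was −0.57, with 5 of 32 above 0, and leaving out single libraries gave 0.03 (without untreated 3) to 0.98 (without 20 Gy 3).

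Genes of MHC class I presentation, which show peptides to killer T cells, had a median interaction of 0.22, with 17 of 22 above 0 (50% of all genes were), 4 risen with radiation and 1 without, beside 0.843% and 0.586% of all genes. H2-Q7, a nonclassical class I molecule that rose with the protein in irradiated tumours, had 13385.7, 11131.8 and 12963.3 normalized counts in combined libraries and 14634.9, 12124.8 and 11134.1 in fusion protein libraries. It had 2826.5, 3450.2 and 5304.4 in 20 Gy libraries and 4505.8, 5445.5 and 7481.5 in untreated libraries. Its levels with the protein overlapped, and the contrast of 0.60 (−0.19 to 1.39) stood beside 20 Gy values of which 2 of 3 lay below all untreated ones. Other H2-Q genes are close copies that may share reads. In 9 of the 22 genes the interval lay within a log2 of 1. Without the 3 libraries rich in receptor genes the median was −0.33, with 5 of 22 above 0, and leaving out single libraries gave 0.04 (without 20 Gy 1) to 0.44 (without 20 Gy 3).

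The 11 positive genes of small p named here did not pass the test. Tlr9, the endosomal sensor of unmethylated CpG DNA (chromosome 9, 106222598 to 106226883, plus strand), had 3456.5, 2345.3 and 3954.8 normalized counts in combined libraries and 2297.2, 1831.5 and 1856.8 in fusion protein libraries. In 20 Gy libraries it had 911.7, 1131.5 and 1338.9, and in untreated libraries 1432.5, 1397.9 and 1173.1. The combined libraries were the highest, with none of them below a fusion protein library, and the 20 Gy and untreated groups overlapped. The contrast was 0.93 (0.25 to 1.62; limma, unadjusted p = 0.0118, adjusted p = 1.00), from a rise of 1.51 with radiation (adjusted p = 0.0061) and an effect of 0.58 without (adjusted p = 0.452). Of 25 sensors of nucleic acids and microbial patterns 17 lay above 0 (median 0.15), Tlr9 was the only member at an unadjusted p under 0.05, and 4 rose with radiation and 3 without, beside 0.843% and 0.586% of all genes. Unc93b1, which carries endosomal Toll-like receptors from the endoplasmic reticulum, had a contrast of 0.56 (−0.35 to 1.46), and Tlr12, a sensor of parasite profilin in mice, one of 0.81 (−0.25 to 1.88).

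Treml2, a receptor of the TREM family, had 2623.2, 2427.9 and 2439.2 normalized counts in combined libraries and 1834, 2686.5 and 1197.6 in fusion protein libraries, against 491.9, 572.2 and 441.1 in 20 Gy libraries and 634.3, 1276.8 and 572.1 in untreated libraries. The 20 Gy libraries lay at or under 572.2, next to the lowest untreated value of 572.1. It rose with the protein by 2.32 in irradiated tumours (limma, adjusted p = 0.00495), had an effect of 1.22 without (adjusted p = 0.173) and a contrast of 1.10 (0.09 to 2.11). Tmem86a, an enzyme of ether lipid breakdown, rose with the protein by 1.16 in irradiated tumours (limma, adjusted p = 0.045), with a contrast of 0.86. The other 8 positive genes had contrasts of 0.48 to 1.80. They were Ptprf, the receptor phosphatase LAR, at 1.80, Upb1, an enzyme of pyrimidine breakdown, at 1.25, Zfp768 at 1.08, the ectoenzyme Enpp4 at 0.96, the orphan receptor Gpr157 at 0.93, Mief2, an adaptor of mitochondrial fission, at 0.86, Tcf4 at 0.78 and Ccdc59 at 0.48.

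Plasmacytoid dendritic cell genes were the list with the highest median interaction of the 40 examined, at 0.79. All 15 members lay above 0, 2 of them at an unadjusted p under 0.05, where 0.241% of all genes were positive at that level, and 0 passed adjustment. The median effect of the fusion protein was 0.13 with radiation and −0.59 without. Radiation's was 0.25 with the protein and −0.57 without. The mean level of the list (log2) was 10.21, 9.84 and 9.86 in combined libraries, 9.86, 9.88 and 9.22 in fusion protein libraries, 9.31, 9.77 and 10.13 in 20 Gy libraries and 9.54, 10.53 and 10.66 in untreated libraries. Each group thus overlapped with at least one other, and 2 of 3 untreated libraries were the highest of all. In sorted bulk RNA fewer cells of a type and less RNA per cell cannot be told apart.

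Tcf4, the transcription factor that sets plasmacytoid dendritic cell identity, had 4176.6, 3282.8 and 3282.5 normalized counts in combined libraries and 2838.8, 2552.8 and 1575.5 in fusion protein libraries, against 3719.6, 3983.8 and 3703.8 in 20 Gy libraries and 3743.5, 4326 and 4333.5 in untreated libraries. Fusion protein libraries without radiation were the lowest, with no overlap with any other group. Its contrast of 0.78 (0.12 to 1.44; limma, unadjusted p = 0.025, adjusted p = 1.00) combined effects of −0.10 with radiation and −0.87 without (adjusted p = 0.978 and 0.118). Cd300c, a surface receptor of the CD300 family, had 280.5, 103.8 and 125.2 normalized counts in combined libraries and 138.6, 52.7 and 54.9 in fusion protein libraries, with 125.8, 126.4 and 100.8 after 20 Gy and 132.5, 167.2 and 142.8 without treatment. Its highest value was combined library 1, 1 of the 3 libraries rich in receptor genes, and its contrast was 1.38 (0.04 to 2.71). Siglech, a surface lectin that marks these cells, named after its value was seen, had a contrast of 1.22 (−0.34 to 2.77) and Cox6a2 one of 1.67 (−0.44 to 3.78). Without the 3 libraries rich in receptor genes 11 of 15 members lay above 0 with a median of 0.54, and without the 4 libraries numbered 3 all 15 did, with a median of 0.57. Leaving out single libraries gave medians of 0.52 to 1.03 and 12 to 15 members above 0, with the lowest median without fusion protein 3.

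**Figure D2:**
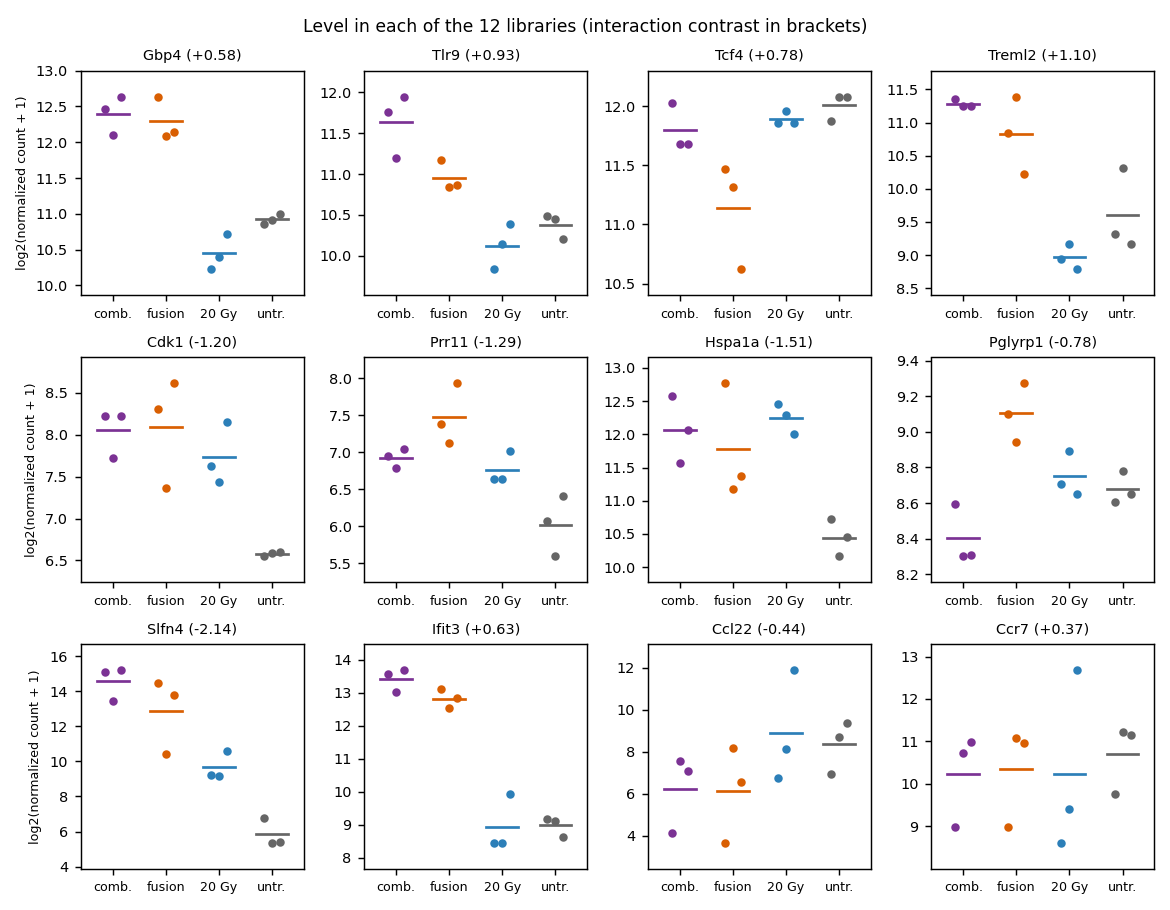
Level of 12 genes in each of the 12 libraries, as log2(normalized count + 1) on the vertical axis, with the combined, fusion protein, 20 Gy and untreated groups from left to right; points are libraries, bars are group means and the number in brackets is the interaction contrast. Gbp4 and Treml2 have their lowest mean after 20 Gy alone, Tcf4 is lowest with the fusion protein alone, and Cdk1 and Hspa1a are lowest without treatment.

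Cell cycle genes leaned the other way. Of 36 members 32 lay below 0 and 4 above, with a median of −0.50, and 5 were negative at an unadjusted p under 0.05, a level that 0.788% of all genes reached. The fusion protein's median effect was 0.40 with radiation and 0.87 without, and 0 members rose with radiation and 1, Cenpe, a kinetochore motor, without, a call kept in 2 of the 12 fits with 1 library left out. Radiation's was −0.17 with the protein and 0.35 without. The mean level of the list (log2) was 9.18, 8.97 and 9.18 in combined libraries, 9.25, 8.80 and 9.74 in fusion protein libraries, 8.51, 8.70 and 9.01 in 20 Gy libraries and 8.23, 8.53 and 8.55 in untreated libraries. The 3 treated groups overlapped in part, and untreated libraries lay below all treated ones other than 20 Gy library 1. The median kept its sign under each single library left out, from −0.77 to −0.23, lowest without fusion protein 2 and highest without fusion protein 3. It was −0.24 without the 4 libraries numbered 3 and −0.79 without the 3 libraries rich in receptor genes. Under TMM scaling, where the median of all genes was 0.12, it was −0.38, with 12 of 36 above 0.

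Cdk1, the kinase that drives entry into mitosis (chromosome 10, 69335146 to 69352938, minus strand), had 296.7, 210 and 298.6 normalized counts in combined libraries and 316.2, 163.1 and 390 in fusion protein libraries. In 20 Gy libraries it had 196.2, 171.4 and 284, and in untreated libraries 92.9, 94.9 and 96.2. Each treatment alone lay above untreated without overlap, and the combined libraries overlapped with both. The contrast was −1.20 (−2.21 to −0.18; limma, unadjusted p = 0.0245, adjusted p = 1.00). The combined geometric mean was 264.99 normalized counts, where the product of the separate effects is 607.77. Ccnb1 and Ccnb2, the B-type cyclins that activate it, had contrasts of −1.25 (−2.34 to −0.15) and, for Ccnb2, the fifth by p, −0.99, and Cenpf and Kif20a, proteins of the kinetochore and of the late spindle, −0.75 and −0.96. The replication factors Mcm5 and Pcna, named after their values were seen, stood at −0.04 (−0.83 to 0.76) and 0.02 (−1.13 to 1.16). Pcna was among the 4 members above 0, where 32 of 36 lay below. These picked genes do not stand for the list's other replication genes.

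Of the 12 negative genes of smallest p, none passed (adjusted p = 1.00 each). Pglyrp1, a protein that binds bacterial cell walls, had the smallest p. It had 384.8, 314.6 and 315.9 normalized counts in combined libraries and 547.9, 491.3 and 617.5 in fusion protein libraries, against 416.2, 474.7 and 400.5 in 20 Gy libraries and 387.9, 439.3 and 401.4 in untreated libraries. Combined libraries were the lowest and fusion protein libraries the highest, with no overlap between these and the other groups. The contrast was −0.78 ± 0.243 (SE; −1.31 to −0.24; limma, unadjusted p = 0.00833). Prr11, a proline-rich protein needed for cell division, had 122.3, 109.3 and 131.2 in combined libraries and 166.1, 138.8 and 242.8 in fusion protein libraries, against 98.6, 98.6 and 128.3 in 20 Gy and 65.9, 47.4 and 83.8 in untreated libraries, all in normalized counts. Its fusion protein effect was 0.16 with radiation and 1.46 without (limma, adjusted p = 0.971 and 0.0541), a contrast of −1.29 (−2.21 to −0.38).

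Other negative genes of smallest p act at chromosome segregation, cell separation and replication, among them Cdca8, borealin of the chromosomal passenger complex, at −1.10, Cep55, a midbody protein, at −1.10, Anln, the contractile ring protein anillin, at −1.29, and Rpa3, a subunit of the single-strand DNA binding complex, at −1.23. Their combined geometric means of 209.32, 214.59, 193.38 and 127.4 normalized counts lay below products of 448.96, 462.67, 475.37 and 300.39. Gpx8, a peroxidase of the endoplasmic reticulum, rose with the fusion protein alone (limma, log2 4.19, adjusted p = 0.0345), had an effect of 0.95 with radiation (adjusted p = 0.864) and a contrast of −3.23 (−5.64 to −0.83), at 111 normalized counts or fewer in each library. Pigx, of GPI anchor synthesis, stood at −0.83, Ccdc34 at −0.94 and Tfpi, the inhibitor of tissue factor, at −2.04. None of the positive and negative genes of smallest p named here changed sign in any alternative listed in the closing section. Their choice by small p on this contrast in the same libraries made a change of sign unlikely, so this is no sign of robustness.

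Hspa1a, the inducible HSP70 chaperone, was the negative gene with the highest level. It had 6108.5, 3031.9 and 4301 normalized counts in combined libraries and 6972.1, 2319.8 and 2651.1 in fusion protein libraries, against 5651.2, 4989.9 and 4102.9 in 20 Gy libraries and 1689.4, 1149.5 and 1395.5 in untreated libraries. All treated libraries lay above all untreated ones, and the 3 treated groups overlapped. The contrast was −1.51 (−2.70 to −0.31; limma, unadjusted p = 0.0179). Its near-identical neighbour Hspa1b, which may share reads with it, had a contrast of −1.44 (−3.01 to 0.14) and the partner chaperone Hsph1 one of −0.82 (−1.72 to 0.08). The list of immediate early and heat shock genes as a whole had a median of 0.03, with 10 of 20 on each side of 0. Without the 3 libraries rich in receptor genes the list's median was −0.63, with 2 of 20 above 0, and without those numbered 3 it was 0.40, with 13 of 20.

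**Figure D3:**
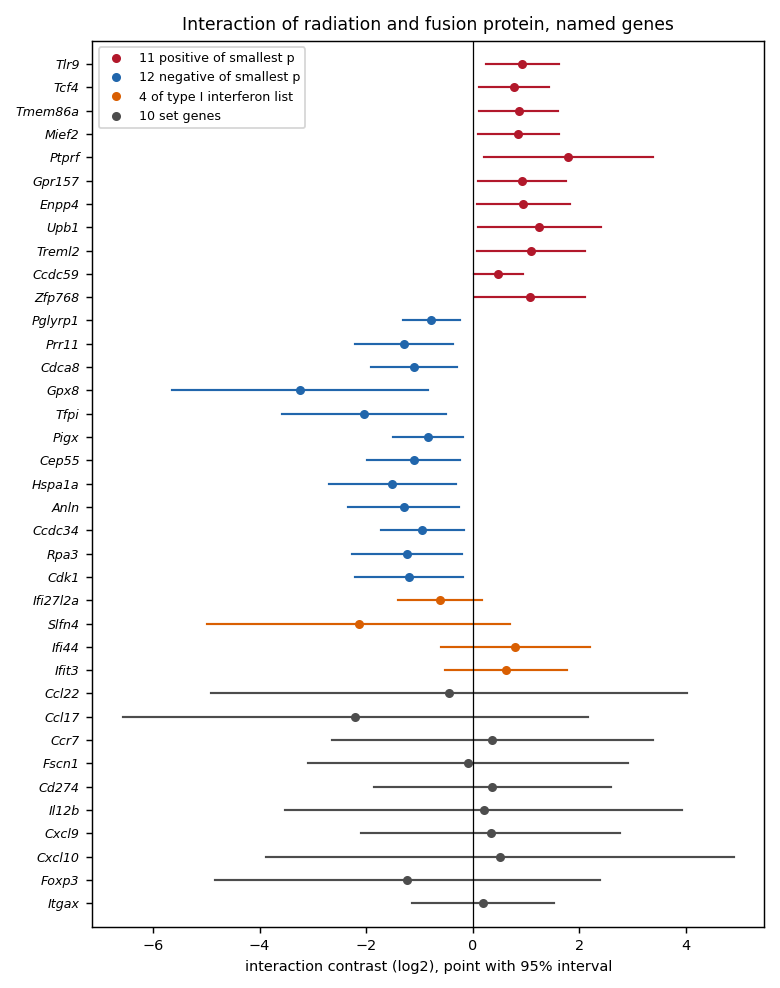
Interaction contrast (horizontal axis, log2) of named genes with its 95% interval from the fit over 12 libraries; colours mark 11 positive and 12 negative genes of smallest p, 4 type I interferon response genes and 10 genes given in every case. Intervals of the 4 interferon genes and of the 10 genes in every case include 0, and those of Ccl22, Ccl17 and Cxcl10 are the widest drawn.

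For Ccl22, the chemokine in the study's title, the main fit, which has no term for library number, did not resolve an interaction. It had 16.2, 184.8 and 133.8 normalized counts in combined libraries and 11.6, 283.6 and 92.3 in fusion protein libraries, against 104.7, 274.3 and 3750.9 in 20 Gy libraries and 122.8, 416.9 and 657.9 in untreated libraries. Within every group the values spread widely and library 1 was the lowest. Of all libraries, 20 Gy library 3, the library with the most Tyrp1, was the highest. The spread thus follows library number in part, and an interval with a replicate block is not given here. The contrast was −0.44 ± 2.036 (SE), with an interval of −4.91 to 4.03, and it ran from −1.67 to 1.05 as single libraries were left out. The protein's effect was −2.66 with radiation and −2.22 without (limma, adjusted p = 0.682 and 0.821). Both p-values come from the fit with no term for library number. At each number the library with the protein lay below the one without it, with radiation and without, and this pattern was not tested. Ccl17, the other CCR4 ligand, had a contrast of −2.20 (−6.57 to 2.16), and Foxp3, which specifies regulatory T cells, one of −1.22 (−4.84 to 2.40).

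Among 10 genes of the CCL22 axis, its ligands with CCR4, CCR8 and regulatory T cell genes, 9 lay below 0, with a median of −0.56. The median was 0.36 without 20 Gy library 3 and −1.39 without fusion protein 1. It was −1.96, with 0 of 10 above 0, without the 3 libraries rich in receptor genes, and 0.02, with 5 of 10, without the 4 libraries numbered 3. The first of these settings leaves 20 Gy with library 3 alone, where Ccl22 was highest. The wider program of mature regulatory dendritic cells had a median of 0.03, with 20 of 35 above 0, 0 members at an unadjusted p under 0.05 and 4 intervals within a log2 of 1. It ran from −0.28 to 0.56 as single libraries were left out, lowest without 20 Gy 1 and highest without 20 Gy 3. Without the libraries rich in receptor genes it was −0.87, with 6 of 35 above 0, and without those numbered 3 it was 0.33, with 28 of 35. Ccr7, the receptor that leads dendritic cells to lymph nodes, had a contrast of 0.37 (−2.64 to 3.38), Fscn1, the actin bundler of mature dendritic cells, −0.08 (−3.08 to 2.92), Cd274, which encodes PD-L1, 0.37 (−1.86 to 2.60) and Il12b, the p40 subunit of IL-12, 0.21 (−3.52 to 3.94). Birc2, an inhibitor of apoptosis that curbs noncanonical NF-kB, had the narrowest of those named, 0.46 (−0.13 to 1.04). The CXCR3 ligands Cxcl9 and Cxcl10 had 0.34 (−2.09 to 2.77) and 0.51 (−3.88 to 4.90), and Itgax 0.20 (−1.13 to 1.53).

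Markers of several other cell types had negative medians. Myeloid cells can carry both sort markers, whereas red cells, melanoma cells, fibroblasts and endothelium lack CD45 and would be removed by the gate. The erythroid list stood at −2.84 with 0 of 8 above 0, melanoma and melanocyte genes at −1.36 with 0 of 14, neutrophil genes at −1.21 with 3 of 16, fibroblast and endothelium genes at −1.21 with 6 of 17, macrophage genes at −0.68 with 1 of 23 and monocyte genes at −0.45 with 5 of 16. At an unadjusted p under 0.05 there were 0, 0, 0, 1, 1 and 2 members, all negative, and 0 passed. The mean neutrophil list level (log2) was 8.10, 6.62 and 8.09 in combined libraries, 7.48, 3.49 and 5.65 in fusion protein libraries, 8.07, 7.6 and 7.59 in 20 Gy libraries and 6.76, 2.81 and 3.90 in untreated libraries. Fusion protein and untreated libraries spread most, and libraries numbered 2 were the lowest of those groups. Melanoma list means were 6.08, 7.45, 9 and 6.06 in library 3 of the combined, fusion protein, 20 Gy and untreated groups and 2.34 to 4.12 in the other 8, and without the 4 libraries numbered 3 the median of that list was −0.09, with 6 of 14 above 0. Leaving out single libraries gave erythroid medians of −4.48 (without untreated 1) to −1.18 (without fusion protein 1), neutrophil medians of −1.98 (without fusion protein 2) to −0.35 (without fusion protein 1), and melanoma medians of −3.29 (without untreated 3) to −0.11 (without fusion protein 3). The fibroblast and endothelium median ran from −1.94 (without untreated 3) to 0.13 (without 20 Gy 3) and was −0.25 without the 4 libraries numbered 3. Macrophage medians ran from −1.46 (without untreated 1) to −0.31 (without untreated 2), and monocyte medians from −0.90 to −0.11 without those same libraries. Without the 4 libraries numbered 3 the macrophage median was −1.01 and the monocyte median −1.03. Without the libraries rich in receptor genes the melanoma median was −5.12, and those of the other 5 lists were −3.10 to −0.93. That setting leaves 20 Gy with library 3 alone, which had the highest melanoma list mean of all libraries, so these medians rest on it. Among lymphocyte lists the medians were 0.48 for B and plasma cell genes (16 of 21 above 0), 0.08 for T cell genes (15 of 23) and −0.49 for regulatory T cell genes (1 of 12).

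C1qa, a chain of the complement protein C1q that macrophages make, had 214, 276.8 and 381.5 normalized counts in combined libraries and 234.8, 345.4 and 321.9 in fusion protein libraries, against 545.6, 497.2 and 975 in 20 Gy libraries and 506.2, 133.5 and 248.3 in untreated libraries. The 20 Gy libraries lay above both groups with the protein, and untreated library 1 reached into their range. Its contrast was −1.39 (−2.76 to −0.03; limma, unadjusted p = 0.0464), and the other C1q chains C1qb and C1qc stood at −1.68 (−3.90 to 0.53) and −1.43 (−3.10 to 0.25). Chil3, a chitinase-like protein of monocytes, had 578, 202.1 and 417.8 in combined libraries and 776.3, 205.6 and 150.5 in fusion protein libraries, with 763.8, 566.8 and 414.9 after 20 Gy and 136.3, 21.2 and 119 without treatment, in normalized counts. Every treated library exceeded every untreated one, and the contrast was −2.64 (−4.96 to −0.33). The part of other cell types in the contrast of any gene was not tested.

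**Figure D4:**
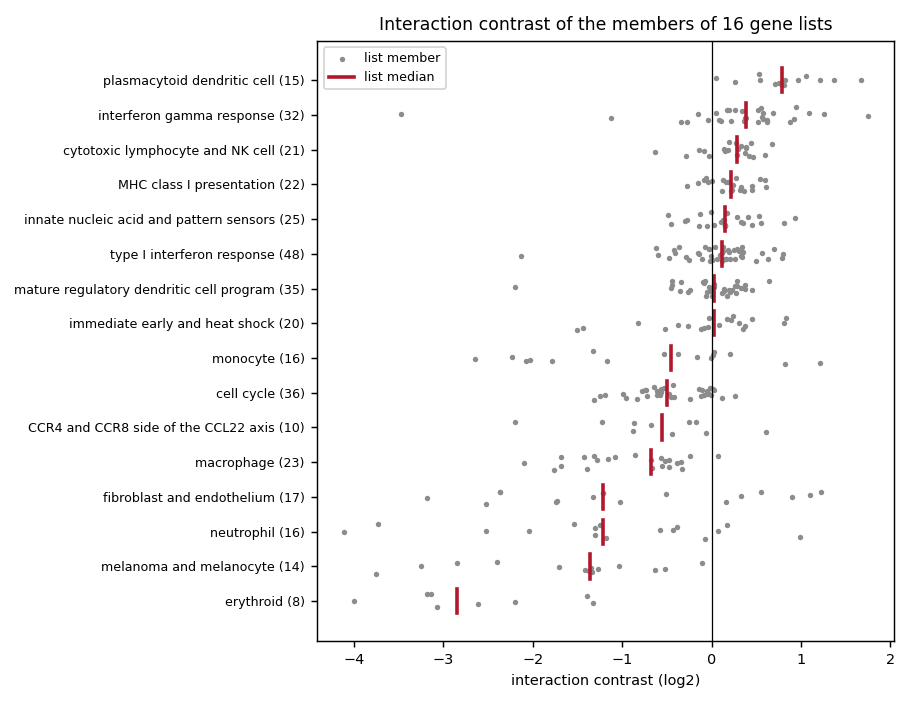
Interaction contrast (horizontal axis, log2) of each tested member of 16 gene lists, ordered by list median (bar), with the number of members in brackets. Plasmacytoid dendritic cell genes lie to the right of 0 and erythroid and melanoma genes to the left, while interferon response genes lie on both sides.

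Cytotoxic lymphocyte and NK cell genes had a median of 0.28, with 16 of 21 above 0 and 0 at an unadjusted p under 0.05. Ncr1, the activating receptor NKp46 of NK cells, had 4301.6, 4155.8 and 3139.2 normalized counts in combined libraries and 8061.5, 3924.4 and 3196.1 in fusion protein libraries, against 2024.8, 2205.1 and 1579.7 in 20 Gy libraries and 3727.8, 3889.1 and 3021.8 in untreated libraries. The 20 Gy libraries were below all others, and the contrast was 0.60 (−0.34 to 1.53). Without the 3 libraries rich in receptor genes the list's median was −0.47, with 4 of 21 above 0. Leaving out single libraries gave −0.14 (without untreated 3) to 0.63 (without 20 Gy 3), with 9 to 19 members above 0. Of the receptor genes listed as silent in immune cells, 40 had enough reads in these libraries to be tested. Being chosen by their level, these 40 are not shown to be silent here and do not stand for the whole list. Their median was −0.44 with 16 above 0, and it ran from −1.38 (without 20 Gy 3) to 0.06 (without combined 2). The part of this choice in these medians was not tested. Medians of the other 24 lists ran from −0.76 for lipid-associated macrophage genes to 0.48 for B and plasma cell genes, with 5 members at an unadjusted p under 0.05. These 24 medians, those of B, T and regulatory T cell genes included, were not recomputed with libraries left out.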

How the data were processed

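RNA of sorted tumour cells was measured in 12 libraries, 4 groups of 3, with 14462032 to 23985496 reads in genes each, and counting error weighs most on genes of low level. The deposited signal values are read counts divided by a size factor per library. Per the submitters' processing notes the authors used FastQC, Trimmomatic, STAR on mm10, featureCounts and DESeq2; the sources used here give no versions and no strand setting. Undoing that division returned whole numbers, to within 0.001, for 100% of values. Of 55401 identifiers 55141 (99.53%) matched GENCODE vM21, the source of symbols and coordinates, and 6975 were at 0 throughout.

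Testing needed 10 or more normalized counts in 3 or more libraries. Log2 of the normalized count plus 1 was fitted with limma 3.58.1 (R 4.3.3, variance trend, 8 residual and 3.313 prior degrees of freedom), all 12 libraries sharing one spread, with Benjamini-Hochberg adjustment over all tested genes and a threshold of 0.05. Tests are two-sided. The steps were tested on simulated data with independent libraries, unlike the correlated same-numbered libraries here, and no result rests on that test. A pseudocount understates changes of low genes. Alternatives used pseudocounts of 0.5 and 5, other filters, TMM, edgeR 4.0.16 and DESeq2 1.42.0 on recovered reads, a replicate block, a covariate and left-out libraries.

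The named genes are the 12 positive and 12 negative of smallest interaction p with a highest group mean of at least 50 (predicted genes, pseudogenes and immune receptor segments left out), 10 set genes, and up to 4 members of smallest p of each list described. One of the positive genes is not reported here. Siglech, Ccnb2, Mcm5, Pcna and Xlr3b are outside this rule and were chosen after their values were seen. The members and the 40 lists (687 genes) were chosen with earlier results of these data known. Promoters are from RefSeq (GRCm38.p6). Whole-list values are descriptions, with no test of a list.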

Additional observations from a re-analysis of the deposited data

How the results depend on the processing

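Intervals rest on 3 libraries a group, and 31.4% of tested genes had a highest group mean under 50 normalized counts, where depth also limits precision. No gene passed for the interaction under the alternatives run, except 1 with DESeq2, Xlr3b (log2 −6.20, adjusted p = 0.0253; chosen after its value was seen), at 30.0 normalized counts or fewer in each library. Genes at an unadjusted p under 0.05 numbered 188, against 221 with edgeR, 309 with DESeq2, 912 with no filter, 61 with a filter of 50, 285 with the receptor gene covariate, 284 without the libraries numbered 3, 448 without the 3 libraries rich in receptor genes and 115 to 384 with single libraries left out. Calls for the fusion protein without radiation (136) were 466 with DESeq2, 50 without the libraries rich in receptor genes and 46 to 178 with single libraries left out. With radiation (188) they were 550, 0 and 76 to 201, with 20 Gy left at 1 library under the second. Radiation without the protein (0) gave 45 with DESeq2, and with the protein 0 throughout. The cause of these differences was not tested.

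Deviations of same-numbered libraries from their group means correlated at 0.01 to 0.621, above 0.1 in 17 of 18 pairs but not in all, so the numbers were not taken as pairing; a library correlated best with its own number in 32 of 36 cases, a hint from the data and not the design. With a replicate block, 0 genes passed for the interaction (555 at an unadjusted p under 0.05), 602 for the fusion protein without radiation, 834 with it and 70 for radiation without the protein.

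The direction of 19 of 90 named genes turned in some alternative, 8 of them among the 10 set genes. Without the libraries rich in receptor genes contrasts were −1.45 for Ccr7, −0.84 for Cd274, −2.27 for Il12b, −1.08 for Cxcl9, −2.53 for Cxcl10, −0.10 for Ifi44, −0.42 for Ifit3, −0.02 for Tgtp2, −0.20 for H2-Q4, −0.08 for Eomes and −0.22 for Kdr. With the receptor gene covariate they were −0.92 for Ccr7, −0.18 for Cd274, −0.84 for Il12b, −0.37 for Cxcl9 and −0.33 for Cxcl10. With edgeR and DESeq2 they were −0.58 and −0.60 for Ccr7, −0.05 and −0.07 for Cd274, −0.68 and −0.68 for Il12b, and −0.09 and −0.09 for Cxcl10. Without the libraries numbered 3 they were 0.33 for Ccl22, 0.68 for Fscn1 and −0.35 for Itgax, and with TMM 0.04 for Fscn1. On the additive scale, in normalized counts, they were −839.9 for Ccr7, −505.47 for Il12b, −28.53 for Cxcl9, 355.58 for Ifi27l2a, 14023.58 for Slfn4, 2.42 for Ccr4 and 36.29 for Cxcr2. As single libraries were left out, the ranges were −1.67 to 1.05 for Ccl22, −1.71 to 0.26 for Ccr4, −0.44 to 1.59 for Ccr7, −0.11 to 1.17 for Cd274, −2.22 to 0.46 for Ctla4, −0.91 to 2.09 for Cxcl10, −0.51 to 1.2 for Cxcl9, −0.91 to 1.04 for Fscn1, −0.67 to 1.71 for Il12b and −0.24 to 0.62 for Itgax.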
